A study of Mus musculus with 18 samples.

Results

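The cytosolic ribosomal protein genes are described here in mouse liver. They were taken by symbol: protein-coding genes named Rpl or Rps with a number, together with Rplp0, Rplp1 and Rplp2, and with at least 10 counts summed over the 18 libraries. This gave 80 of the 55385 genes in the deposited table, 49 of the large subunit and 31 of the small subunit. A further 2 genes fit the symbols but not the minimum, Rpl3l with 2 counts and Rpl10l with 0 counts over all libraries. Of the 80 genes, 79 passed the filter on low counts and were tested. Rpl39l, with 26 counts in all, did not.

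Polyadenylated RNA was sequenced from the livers of 18 mice aged 17.1 to 18.0 weeks, in 3 groups of 6 with 3 males and 3 females each. The control group was wild-type C57BL/6J. Dp16 mice carry a duplication of the segment of mouse chromosome 16 from Lipi to Zbtb21 (chr16:75540514-97962622, GRCm38) and are a model of trisomy 21 for the genes of that segment alone. Dp16-2xIFNRs mice are labelled as normalized in interferon receptor dosage: the duplication is kept, while the receptor genes Ifnar1, Ifnar2, Il10rb and Ifngr2 inside it are back at the copy number of the wild type. The labels record no treatment and name no litters or pairs. A number in the sample descriptions is shared by 11 of the mice, across genotypes and within a sex, and its meaning is not given.

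The cytosolic ribosome is built from a large and a small subunit, each made of ribosomal RNA and of proteins that are mostly present in a single copy. The mRNAs of these proteins are short and abundant, and most begin with a cytosine followed by a run of pyrimidines, the terminal oligopyrimidine (TOP) motif. The kinase mTOR, through the TOP-binding protein LARP1, controls their translation and their stability, and in hepatocytes they follow feeding and growth signals.

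Start sites show that motif directly in some of the genes. RefSeq promoter windows (GRCm38.p6) were held for 60 of the 80 genes, as 71 windows. A cytosine followed by at least 4 pyrimidines stood exactly at the annotated start of 13 of these 60 genes (21.7%), beside 3.01% of all 27025 genes with a window, and was not there in the other 47. The same motif within 10 bases on either side of the start, a window chosen after the first result was seen, occurred in 61.7% and 34.4%. The sequences below run from 10 bases before the start to 20 bases from it, on the coding strand, and the capitals mark the pyrimidine run at the start. They are shown for 6 genes described further on that have the motif at the start, and for the 4 paralogs, of which Rps27l has 2 annotated starts. The 4 paralogs, like 43 of the other genes with a window, have no such run exactly at the start, so nothing is in capitals. Of the 4, 3 have one within 10 bases of a start and Rpl7l1 has none, so the motif does not set them apart from the other genes.
Rplp2, chr7:141447641-141447670, plus strand: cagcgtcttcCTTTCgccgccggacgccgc
Rps6, chr4:86857348-86857377, minus strand: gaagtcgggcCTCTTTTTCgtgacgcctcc
Rpl28, chr7:4792955-4792984, plus strand: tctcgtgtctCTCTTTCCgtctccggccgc
Rpl35a, chr16:33056472-33056501, plus strand: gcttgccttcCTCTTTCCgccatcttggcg
Rps15a, chr7:118116128-118116157, minus strand: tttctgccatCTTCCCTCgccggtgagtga
Rps27, chr3:90213629-90213658, minus strand: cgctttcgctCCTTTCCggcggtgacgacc
Rps27l, first start, chr9:66946076-66946105, plus strand: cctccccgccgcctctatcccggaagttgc
Rps27l, second start, chr9:66946403-66946432, plus strand: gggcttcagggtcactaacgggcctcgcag
Rpl22l1, chr3:28805498-28805527, plus strand: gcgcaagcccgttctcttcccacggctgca
Rpl7l1, chr17:46782637-46782666, minus strand: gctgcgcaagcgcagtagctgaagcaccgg
Rpl39l, chr16:10170218-10170247, plus strand: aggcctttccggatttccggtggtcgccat

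Over the full windows, from 250 bases before the start to 50 bases after it and on both strands, the core of ETS factor sites, CCGGAA, was in 56.7% of the 60 genes and in 16.7% of all genes with a window. The YY1 core AAGATGGC was in 10.0% and 3.19%. TATAAA, the TATA box core, was in 10.0% and 9.77%, and the E-box CACGTG in 10.0% and 8.09%. These shares count letters only, and some windows of a gene overlap.

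The libraries differed in ways that reach these genes, so the libraries come first. Total counts ran from 38236222 to 59923315, and libraries 4 and 5 of Dp16 had the lowest and the highest scaling factor (0.803 and 1.34). Ifnar1 checks the labels, and its median was highest in Dp16: it had lowest, median and highest values of 19.8, 21.8 and 25.5 CPM in wild-type, 26.0, 31.7 and 42.4 CPM in Dp16 and 18.3, 23.5 and 26.9 CPM in Dp16-2xIFNRs. Medians in the same order were 62.2, 93.1 and 66.2 CPM for Ifnar2, 5.90, 10.3 and 7.01 CPM for Il10rb and 28.9, 36.4 and 26.9 CPM for Ifngr2. The ranges of Dp16 overlapped with those of both other groups for these 3 genes, and with Dp16-2xIFNRs for Ifnar1. CPM is a gene's count scaled to the library total after TMM scaling, which sets the libraries to a common level over most genes. Hepatocyte markers, 9 of 10 symbols matched and none at 0, summed to between 88219 and 149239 CPM in every library.

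Genes of the large and small subunit lie on 19 chromosomes. The 3 on chromosome 16 are Rpl35a (chr16:33056453-33060189), Rpl24 (chr16:55966275-55971435) and Rpl39l (chr16:10170226-10174911), and all 3 lie outside the duplicated segment. On the X chromosome lie 4, Rpl10, Rps4x, Rpl36a and Rpl39. Their transcripts are short: the summed exon length in the deposited table had a median of 969 bases, and 42 of the 80 genes were under 1 kb. The table also holds 311 pseudogenes named after Rpl or Rps genes, whose counts came to 0.624% of those of the 80 genes. How reads shared with these near-identical copies were treated is not stated in the sources at hand, so the counts of single genes are uncertain by an unknown amount. The 0.624% is no bound on it, since it leaves out pseudogenes under other names and any reads dropped in counting.

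Ribosomal protein mRNAs were among the most abundant in the liver. On the RPKM scale, which divides by gene length and by the library total, the median of their mean levels was 279, beside 2.18 for all tested genes, and 69 of the 80 were at 100 RPKM or more. Rplp1, a protein of the stalk through which the ribosome meets the elongation factors, was the highest at 1428 RPKM, with a range of 662 to 2055 RPKM over the 18 libraries. Next were Rps2, of the small subunit, at 785 RPKM and Rpl36, of the large subunit, at 778 RPKM, and the ranges of these 2 overlapped over the libraries.

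**Figure D1:**
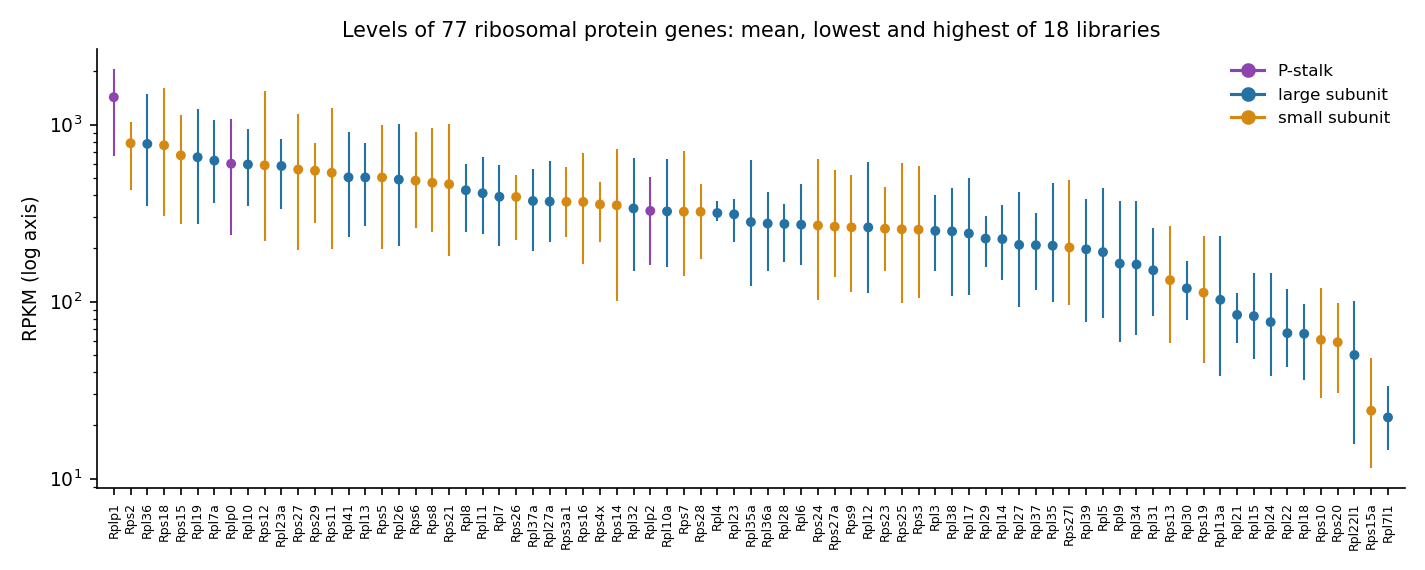
Mean level of each of 77 of the 79 tested ribosomal protein genes in RPKM on a log axis (points), with a line from the lowest to the highest of the 18 libraries. Rplp1 stands highest at 1428 RPKM, and Rps15a and Rpl7l1 lowest at 24.2 and 22.2 RPKM.

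At the low end were Rps15a at 24.2 RPKM, Rpl7l1 at 22.2 RPKM and Rpl39l at 0.037 RPKM. Rps15a is a core protein of the small subunit, and its summed exon length of 5395 bases, the longest among the 80 genes, divides its RPKM value; by counts it reached a median of 107 CPM in wild-type. Rpl7l1 is a paralog of Rpl7. Rpl39l, a paralog of Rpl39 known for its use in the male germ line, had counts in 4 libraries and never more than 0.234 CPM.

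Among the other paralogs, Rpl22l1 had 49.96 RPKM beside 66.4 RPKM for Rpl22. Rps27l, known as a p53 target, had 202 RPKM beside 557 RPKM for Rps27. Rpl7 had 391 RPKM and Rpl39 197 RPKM. Each paralog was thus below its partner in mean level, and the ranges over libraries overlapped for Rpl22l1 (15.7 to 100.4 RPKM against 42.9 to 118 RPKM) and for Rps27l (95.4 to 487 RPKM against 196 to 1145 RPKM).

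The share of all counts that fell in the 80 genes overlapped between the groups and varied widely inside them. Its lowest, median and highest values were 1.66%, 2.17% and 3.22% in wild-type, 1.26%, 1.96% and 4.43% in Dp16, and 2.32%, 2.83% and 3.41% in Dp16-2xIFNRs. The means were 2.31% ± 0.731, 2.26% ± 1.17 and 2.87% ± 0.444 (SD, n = 6 each). Both ends of the whole range were Dp16 mice: library 4, a male, at 4.43% (95% Wilson interval 4.425% to 4.437%, which covers counting error only) and library 5, a female, at 1.26% (1.255% to 1.261%). Wild-type libraries fell apart into 3 near 1.66% and 3 between 2.68% and 3.22%, with 2 males and 1 female in the first and 1 male and 2 females in the second. The 6 Dp16-2xIFNRs libraries lay inside the range of the wild-type group except for males 3 and 5, at 3.34% and 3.41%.

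**Figure D2:**
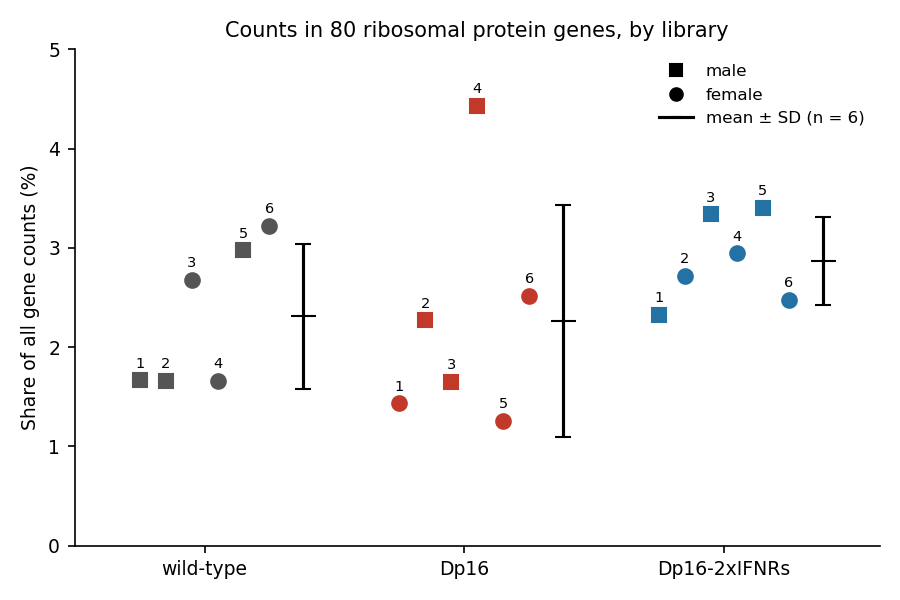
Percent of each library's gene counts in the 80 ribosomal protein genes, by genotype, with squares for males, circles for females, the library number above each point, and the mean and SD of 6 libraries beside them. Dp16 libraries 4 (4.43%) and 5 (1.26%) are the ends of the range, and the 3 groups overlap.

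The genes moved together from library to library. Against the wild-type mean of log2 CPM, all 79 tested genes lay above it in 7 libraries and all 79 lay below it in 6, and in the other 5 libraries between 64 and 78 lay above. Their median was 1.33 in Dp16 library 4 and -1.22 in Dp16 library 5. The SD over the 18 libraries of a single gene's log2 CPM had a median of 0.67. When each library's median over the 79 genes was taken off, the median SD fell to 0.17. For all tested genes the median SD was 0.44, but there 0.5 CPM was added before the log. That lowers the SD of genes with few counts, so 0.67 and 0.44 are not on the same scale.

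Inside that common movement the genes differed in reach. Rpl9, of the large subunit, had the widest SD at 0.95. Rpl4, a large subunit protein that lines the tunnel of the growing chain, had the narrowest at 0.23. Its lowest, median and highest values were 413, 479.7 and 556 CPM in wild-type, 338, 448 and 589 CPM in Dp16 and 458, 558 and 624 CPM in Dp16-2xIFNRs, so that its groups overlapped. Rpl4 stayed within 285 to 368 RPKM over all libraries. With the library median removed, Rpl4 had the widest SD (0.43). Rpl4 moved less than that median, so taking the median off leaves a movement that Rpl4 itself did not have. The SD of the genes and their coding length had a Spearman correlation of -0.19 across the 79 genes, which share the same libraries and are not independent.

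**Figure D3:**
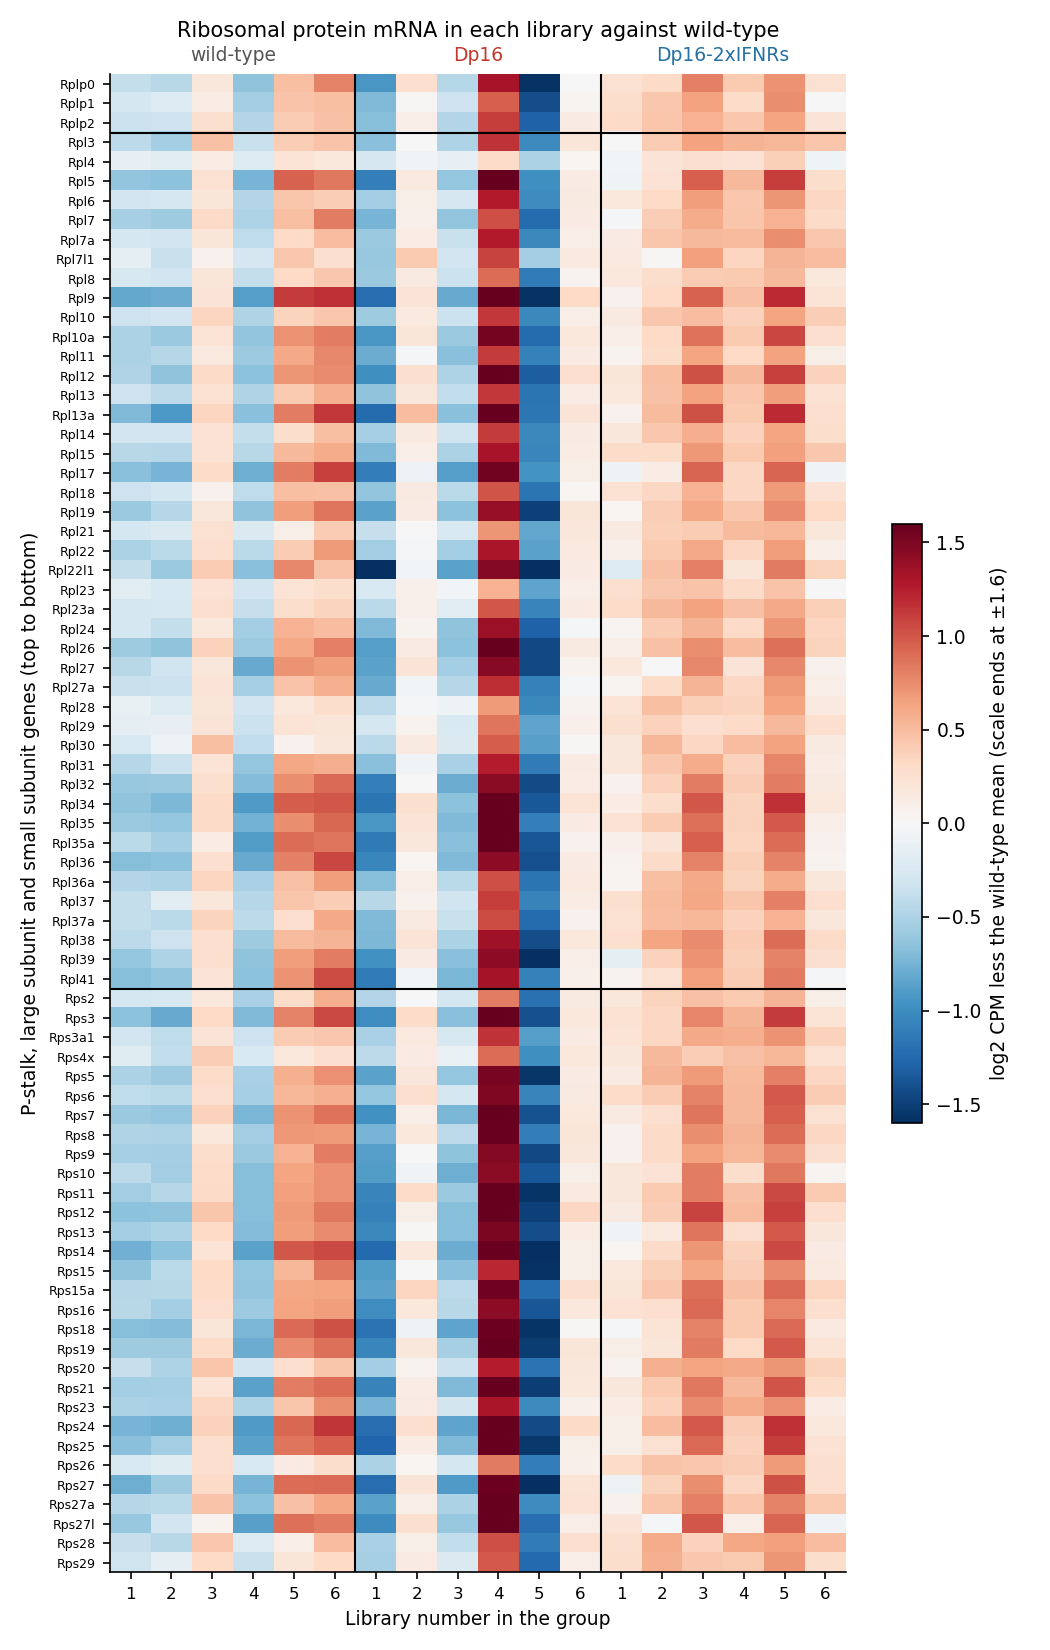
Log2 CPM of each of 77 of the 79 tested ribosomal protein genes (rows) in each library (columns), less the wild-type mean of that gene, on a colour scale that ends at ±1.6. Columns rather than rows carry the pattern, with Dp16 library 4 high (median over the 79 genes 1.33) and Dp16 library 5 low (median -1.22), while the row of Rpl4 stays pale.

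Gene length moved with this pattern. In each library, the difference of log2 CPM from the mean of all libraries was fitted on log2 gene length over the genes that are not ribosomal protein genes. For these slopes, and for the medians of other genes by length, 0.5 CPM was added before the log. The slope was negative, meaning that short genes were higher, in 11 libraries, and in 11 of these 11 the ribosomal protein median lay above the wild-type mean. It was positive in 7 libraries, and in 6 of these the median lay below. Slopes ran from -0.30 in Dp16 library 4 to 0.34 in Dp16 library 5. The 1519 other tested genes under 1 kb had medians of 0.61 and -0.48 in those libraries, against the wild-type mean, and genes of 4 kb or longer had medians of -0.46 and 0.48.

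In 18 of 18 libraries the ribosomal protein genes lay on the same side of the wild-type mean as the other genes under 1 kb. Their distances from it are not alike, since the 0.5 CPM added to the other genes alone draws weakly expressed genes toward 0. In the edgeR fit the medians of ribosomal protein genes and of other genes under 1 kb were -0.07 and -0.13 in Dp16 against wild-type. They were 0.34 and 0.23 in Dp16-2xIFNRs against wild-type, 0.40 and 0.36 against Dp16, and 0.33 and 0.23 between the sexes. The part of length in the differences below was not tested beyond the length offset given with them. In whole tissue, a smaller number of cells of one type and less RNA per cell cannot be told apart.

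**Figure D4:**
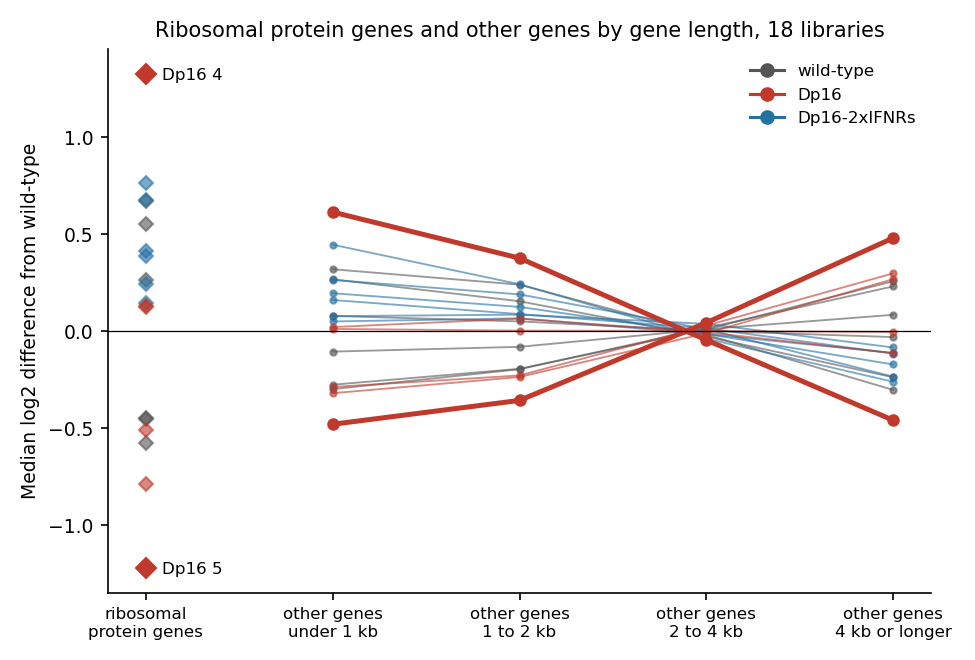
Median log2 difference from the wild-type mean in each of 18 libraries, for the ribosomal protein genes (diamonds) and for other genes in 4 classes of length (lines), with Dp16 libraries 4 and 5 drawn thick. For the other genes alone, 0.5 CPM was added before the log. Lines fan out at both ends and cross at 2 to 4 kb, with Dp16 library 4 at 0.61 and Dp16 library 5 at -0.48 for other genes under 1 kb.

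Markers of blood cells also varied with these libraries. Erythroid markers, 7 of 7 matched and none at 0 in all libraries, summed to 50.5 to 188 CPM in wild-type, 13.3 to 413 CPM in Dp16 and 90.4 to 324 CPM in Dp16-2xIFNRs, with the Dp16 extremes again in libraries 5 and 4. T and NK cell markers (8 of 8) summed to 2.18 to 10.9 CPM, 2.68 to 11.2 CPM and 7.50 to 10.2 CPM in the same order. B and plasma cell markers (7 of 7) summed to 4.79 to 21.2 CPM, 5.19 to 38.5 CPM and 18.9 to 58.7 CPM. Dp16 library 4 had the highest Dp16 sum in all 3 lists, and Dp16 library 5 the lowest for erythroid and for B and plasma cell markers. By gene, the erythroid markers, 6 of 7 tested, had a median log2 fold change of 1.51 in Dp16 and 2.06 in Dp16-2xIFNRs against wild-type, and 0.50 in Dp16-2xIFNRs against Dp16. Of those 6 markers 2, 5 and 1 had an unadjusted p under 0.05, beside 4.87%, 8.66% and 9.32% of all genes, and 0 were called. Without Dp16 library 4, 2 of the 6 were called higher in Dp16-2xIFNRs than in wild-type, beside 48 of 15467 genes called. In that fit 6 of 6 had an unadjusted p under 0.05 for Dp16-2xIFNRs against Dp16, beside 28.4% of all genes. Over all 18 libraries and in the same order of comparisons, the medians were 0.58, 0.76 and 0.44 for T and NK cell markers. For B and plasma cell markers they were 0.22, 0.97 and 0.80, and 0 of both lists were called. Their part in the ribosomal protein values was not tested.

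The comparison of Dp16 with wild-type asks what accompanies the extra segment. Ribosomal protein mRNAs showed no shift beyond the spread between mice. Of the 79 tested genes 14 were above and 65 below wild-type. Their median log2 fold change was -0.07 (0.952-fold, range -0.27 to 0.09), beside 0.01 for all 15208 tested genes. None passed an adjusted p of 0.05 in the edgeR quasi-likelihood test, where 0.0395% of all genes did. None passed an unadjusted p of 0.05 either, beside 4.87% of all genes, and DESeq2 and limma-voom also called 0 of 79. CPM values of the groups overlapped for all 79 genes, and 0.217% of all genes had no overlap.

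The stalk proteins show this spread. Rplp0 (ENSMUSG00000067274.10, chromosome 5, positions 115559467 to 115563727), the base of the stalk, had lowest, median and highest values of 465, 689 and 1257 CPM in wild-type and 242, 626 and 1810.2 CPM in Dp16. Its log2 fold change was -0.13 (SE 0.356, adjusted p = 0.999, edgeR). The Dp16 values span the whole wild-type range on both sides.

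Rplp1 (ENSMUSG00000007892.8, chromosome 9, positions 61913284 to 61914542) had 449.9, 643 and 923 CPM in wild-type and 247, 596 and 1278 CPM in Dp16, by the same 3 measures. Rplp2 (ENSMUSG00000025508.13, chromosome 7, positions 141447370 to 141451585), its partner on the stalk, had 225, 310.0 and 431 CPM and 127, 280.3 and 667 CPM. Both overlapped between the groups, with log2 fold changes of -0.17 and -0.08 (SE 0.276 and 0.289).

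Rps6, the small subunit protein that S6 kinase phosphorylates, had lowest, median and highest values of 244, 345 and 521 CPM in wild-type and 170.1, 339 and 990.4 CPM in Dp16. Rpl12, which sits at the foot of the stalk, had 166, 254 and 440.2 CPM and 104, 247 and 948 CPM. In each of them 1 library, Dp16 4, made the top of the group, and the next highest Dp16 value was 425 CPM for Rps6 and 314 CPM for Rpl12. Their log2 fold changes were 0.07 (SE 0.323) and 0.09 (SE 0.422), and without Dp16 library 4 they were -0.31 and -0.45.

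The direction of this comparison changed with single libraries. Without Dp16 library 4 the median log2 fold change was -0.46, with 79 of 79 genes below wild-type, 0 called and 3 at an unadjusted p under 0.05, beside 9.11% of all genes. Without Dp16 libraries 4 and 5 it was -0.31, again with 79 of 79 below. The median was above 0 without Dp16 library 1 (0.06), 3 (0.03) or 5 (0.12), or without wild-type library 5 (0.02) or 6 (0.11), with 0 called each time. With a gene length offset over all 18 libraries it was -0.02.

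Dp16-2xIFNRs livers were next set against wild-type, to see what remains when the receptor dosage is back at that of the wild type. All 79 genes were above wild-type, by a median log2 fold change of 0.34 (1.26-fold, range 0.16 to 0.48), beside -0.02 for all tested genes. No single gene was called by edgeR, where 0.0986% of all genes were, and none had an unadjusted p under 0.05, beside 8.66% of all genes. DESeq2 and limma-voom called 0 of 79 as well. The genes share their libraries, so the count of 79 is not 79 separate observations.

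Rpl23a, a protein at the exit of the tunnel, had the smallest p. Its lowest, median and highest values were 225, 295 and 372 CPM in wild-type and 354, 407 and 452 CPM in Dp16-2xIFNRs, with overlap at the edge. Its log2 fold change was 0.45 (SE 0.242, adjusted p = 0.613, edgeR).

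Rps26, which lies where the mRNA leaves the small subunit, had 206.7, 241 and 296 CPM in wild-type and 293, 325 and 391 CPM in Dp16-2xIFNRs. Rpl28, of the large subunit, had 295, 373 and 445 CPM and 406, 471 and 564 CPM. The lowest Dp16-2xIFNRs values of both lay inside the wild-type range, and their log2 fold changes were 0.39 (SE 0.226) and 0.35 (SE 0.204).

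The groups did not overlap for 1 gene of 79, Rpl29, which was singled out after its values were seen, beside 0.855% of all tested genes. Rpl29 (ENSMUSG00000048758.14, chromosome 9, positions 106429454 to 106431568), of the large subunit, had lowest, median and highest values of 133, 172 and 196 CPM in wild-type and 199.9, 205 and 241 CPM in Dp16-2xIFNRs. The gap between the highest wild-type and the lowest Dp16-2xIFNRs library was thus narrow, and the test did not call it (log2 fold change 0.31, SE 0.202, adjusted p = 0.654, edgeR).

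Among the stalk genes, Rplp0 had 856, 933 and 1267 CPM in Dp16-2xIFNRs, Rplp1 655, 850.4 and 1107 CPM and Rplp2 359.9, 420.5 and 481 CPM. All 3 overlapped with wild-type, and their log2 fold changes were 0.34, 0.34 and 0.37. Other genes under 1 kb had a median log2 fold change of 0.23 in the same comparison. Leaving out wild-type library 1, 2 or 6 took the ribosomal protein median to 0.22, 0.22 and 0.54. With the length offset it was 0.18, with 78 of 79 above and 2 genes at an unadjusted p under 0.05, beside 9.21% of all genes.

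The comparison of Dp16-2xIFNRs with Dp16 asks what the receptor dosage itself changes on the background of the duplication; it shares its groups with both comparisons above. The median log2 fold change was 0.40 (1.32-fold, range 0.21 to 0.54) with 79 of 79 genes above Dp16, beside -0.02 for all tested genes. None was called by edgeR, DESeq2 or limma-voom, and edgeR called 0% of all genes. At an unadjusted p under 0.05 there were 2 of 79, Rpl28 and Rps26, beside 9.32% of all genes. CPM ranges overlapped for 79 of 79, and 0.158% of all genes had no overlap.

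Rpl28 (ENSMUSG00000030432.12, chromosome 7, positions 4792874 to 4795066) had lowest, median and highest values of 179, 354 and 585 CPM in Dp16 and 406, 471 and 564 CPM in Dp16-2xIFNRs. Its log2 fold change was 0.44 (SE 0.205, adjusted p = 0.532, edgeR). Rps26 (ENSMUSG00000025362.6, chromosome 10, positions 128624534 to 128626747) had 114, 226 and 434 CPM and 293, 325 and 391 CPM, and a log2 fold change of 0.48 (SE 0.227, adjusted p = 0.532). In both genes the 6 Dp16-2xIFNRs libraries lay above 5 of the 6 Dp16 libraries, and Dp16 library 4 lay above them all.

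Rps2, the most abundant small subunit mRNA by RPKM, had 371, 773 and 1496 CPM in Dp16 and 901, 1109 and 1231 CPM in Dp16-2xIFNRs and overlapped more widely, with a log2 fold change of 0.40 (SE 0.252).

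This comparison moved most with library 4 of Dp16. Without it the median log2 fold change was 0.80 (range 0.34 to 1.06), and 79 of 79 genes had an unadjusted p under 0.05, beside 28.4% of all genes. This was not particular to the 79 genes. In the same fit it held for 5 of 5 ribosome components outside the symbol rule and 14 of 17 translation factors and other genes with TOP mRNAs. It also held for 57 of 77 mitochondrial ribosomal proteins, 18 of 55 ribosome biogenesis genes, 10 of 20 regulators and 4 of 12 RNA polymerase I genes. The smallest adjusted p among the 79 was then 0.0663 and the largest 0.146, so that 0 were called. CPM ranges were then apart for 25 of 79 genes, among them Rplp2, Rps6, Rpl28, Rps26 and Rpl29, beside 4.43% of all genes. Without both library 4 and library 5 the median was 0.67, with 66 of 79 at an unadjusted p under 0.05 beside 18.3% of all genes, 25 of 79 apart beside 4.66% of all genes, and 0 called. Other genes under 1 kb moved along in each case, with medians of 0.36 in all libraries, 0.63 without library 4 and 0.53 without both. Without Dp16 library 5 alone the ribosomal protein median was 0.23. With the length offset over all 18 libraries it was 0.18.

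Mice that share a description number can be set side by side, which was done after the data were seen. By the median of the 79 genes against the wild-type mean, Dp16-2xIFNRs libraries 4, 1 and 6 had 0.41, 0.14 and 0.24 where the Dp16 libraries of the same number (1, 3 and 6) had -0.79, -0.51 and 0.13. Dp16-2xIFNRs libraries 1, 2 and 3 had 0.14, 0.39 and 0.68 where wild-type libraries 1, 3 and 5 had -0.45, 0.27 and 0.55. In all 6 of these pairs the Dp16-2xIFNRs library was the higher, by 0.11 to 1.20; by share of counts 1 pair had the other order (2.48% in Dp16-2xIFNRs 6 and 2.52% in Dp16 6). Dp16 libraries 4 and 5 share their numbers with no other library, and Dp16-2xIFNRs library 1 stands in 2 of the pairs.

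**Figure D5:**
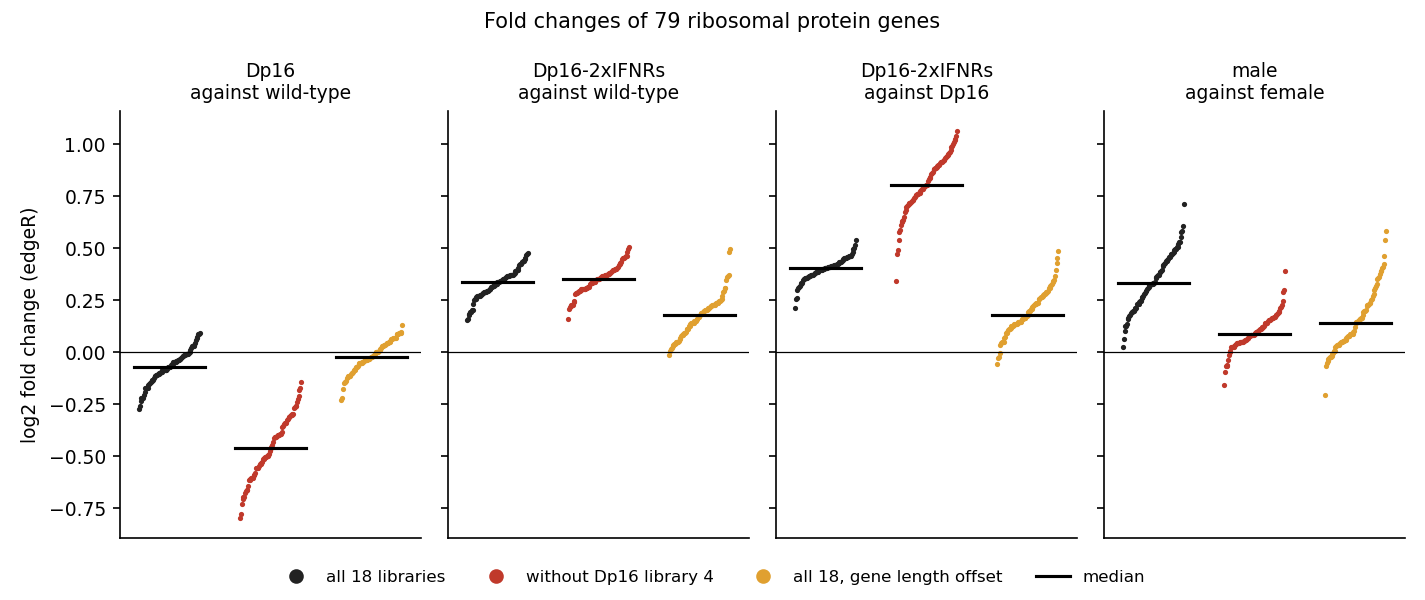
Log2 fold changes of the 79 tested ribosomal protein genes in 4 comparisons (each set of points sorted by value, with a bar at the median), from all 18 libraries, without Dp16 library 4, and with a gene length offset. For Dp16-2xIFNRs against Dp16 the median goes from 0.40 to 0.80 without library 4 and to 0.18 with the offset.

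Sex was balanced over the genotypes, which allows the same genes to be compared between 9 males and 9 females. All 79 were above the female level in males, with a median log2 difference of 0.33 (1.26-fold, range 0.03 to 0.71), beside -0.02 for all tested genes. None was called by edgeR, DESeq2 or limma-voom, while edgeR called 6.56% of all genes. At an unadjusted p under 0.05 there was 1 of 79, beside 18.8% of all genes. CPM ranges overlapped for 79 of 79, and 1.87% of all genes had no overlap.

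That 1 gene was Rps27l (ENSMUSG00000036781.13, chromosome 9, positions 66946086 to 66949516). Its lowest, median and highest values were 42.9, 99.1 and 178 CPM in females and 65.4, 119 and 352 CPM in males, with a log2 difference of 0.71 (SE 0.337, adjusted p = 0.26, edgeR). The sexes overlap over most of their range. Its partner Rps27 had 67.9, 269 and 417 CPM and 119, 258 and 659.6 CPM and a difference of 0.45 (SE 0.369).

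Rpl27 and Rpl35a, both of the large subunit and both known as genes of Diamond-Blackfan anaemia, were next by p. Rpl27 had 61.2, 173 and 264 CPM in females and 114, 192 and 455 CPM in males, a log2 difference of 0.56 (SE 0.294). Rpl35a had 76.3, 207.2 and 356 CPM and 124, 225 and 639.6 CPM, a difference of 0.60 (SE 0.343). The lowest value of each was a female of Dp16, library 5, and the highest a male of Dp16, library 4.

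The difference moved with those same libraries. Without Dp16 library 4 the median over the 79 genes was 0.09 with 72 above, without library 5 it was 0.21, and without libraries 4 and 5 it was 0.02 with 45 above and 34 below. With the length offset over all 18 libraries it was 0.14 with 68 above and 11 below, and with library totals in place of TMM factors 0.19 with 73 above, where the median of all genes was -0.16. Other genes under 1 kb had a median difference of 0.23 between the sexes in the fit over all 18 libraries.

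Dp16 males and females parted more than the other groups. The share of counts was 2.78% ± 1.46 in Dp16 males and 1.74% ± 0.683 in Dp16 females, 2.101% ± 0.759 and 2.52% ± 0.793 in wild-type, and 3.02% ± 0.606 and 2.72% ± 0.234 in Dp16-2xIFNRs (SD, n = 3 each). In the fit with an interaction of genotype and sex, Dp16 against wild-type had a median log2 fold change of -0.72 in females, with 79 of 79 below, and 0.54 in males, with 79 of 79 above. The difference between the sexes had a median of 1.31. None of the 79 was called for it and 0% of all genes were, while 21 of 79 had an unadjusted p under 0.05, beside 7.88% of all genes.

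Rplp0 was one of the 21. Its values were 820.3 CPM, 465 CPM and 1257 CPM in the 3 wild-type females and 379.7 CPM, 242 CPM and 723 CPM in the 3 Dp16 females. In males they were 559 CPM, 535 CPM and 1011 CPM in wild-type and 875 CPM, 529 CPM and 1810.2 CPM in Dp16. The groups overlapped in both sexes, and the difference of the effects was 1.53 on the log2 scale (adjusted p = 0.582, edgeR).

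For Dp16-2xIFNRs against wild-type the medians were 0.15 in females and 0.58 in males, and for Dp16-2xIFNRs against Dp16 they were 0.86 and 0.04. No gene of the 79 was called for the difference between the sexes in either, and 0% of all genes were in both. None of the 79 had an unadjusted p under 0.05 for it, beside 2.24% of all genes for the comparison with wild-type and 3.33% for that with Dp16. Without Dp16 libraries 4 and 5 the median difference between the sexes in Dp16 against wild-type was 0.32, and none of the 79 had an unadjusted p under 0.05 for it, beside 3.61% of all genes. The Dp16 males then had a median of -0.12 against wild-type, with 62 of 79 below, and the Dp16-2xIFNRs males a median of 0.72 against Dp16.

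Paralogs are set here beside their partners. Rpl22l1, which can take the place of Rpl22, had lowest, median and highest values of 16.0, 26.7 and 43.2 CPM in wild-type, 7.8, 19.4 and 70.2 CPM in Dp16 and 21.8, 33.9 and 45.5 CPM in Dp16-2xIFNRs. Rpl22 had 86.7, 120.1 and 197 CPM, 68.2, 102 and 305 CPM and 130.3, 160.0 and 195 CPM in the same order. For Dp16-2xIFNRs against Dp16 their log2 fold changes were 0.54 (SE 0.422) and 0.30 (SE 0.309), which differ by less than either SE.

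Rpl7l1 had 48.6, 60.7 and 83.9 CPM, 41.0, 59.8 and 131 CPM and 62.8, 82.9 and 98.0 CPM in wild-type, Dp16 and Dp16-2xIFNRs. Rpl7 had 282, 406 and 736 CPM, 178, 355 and 854 CPM and 409.5, 559 and 629 CPM. Against wild-type, their log2 fold changes in Dp16-2xIFNRs were 0.35 (SE 0.232) and 0.27 (SE 0.323). Rpl39, the partner of the nearly absent Rpl39l, had 69.4, 103 and 190.2 CPM, 34.97, 91.9 and 291 CPM and 97.4, 140.4 and 187 CPM, and its groups overlapped.

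Rps15a, Rpl36 and Rps27 repeat the order of the libraries. Rps15a had 70.1, 107 and 168 CPM in wild-type, 46.5, 106 and 322 CPM in Dp16 and 125, 149 and 204 CPM in Dp16-2xIFNRs. Rpl36 had 149.9, 241 and 550.3 CPM, 99.3, 214 and 711 CPM and 273, 334 and 457 CPM. Rps27 had 129, 213 and 417 CPM, 67.9, 189 and 659.6 CPM and 210.5, 283 and 453 CPM. In all 3 genes the Dp16 group held both the lowest and the highest library, and the groups overlapped.

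The rest of the pathway was read from lists written with general knowledge of the ribosome. Among the 5 ribosome components outside the symbol rule are Rpsa and Rack1, both of the small subunit. The 5 had medians of -0.13 (Dp16 against wild-type), 0.35 (Dp16-2xIFNRs against wild-type), 0.44 (Dp16-2xIFNRs against Dp16) and 0.33 (male against female), close to those of the 79 genes. None of the 5 was called or had an unadjusted p under 0.05 in these 4 comparisons. Their summed level was highest in Dp16 library 4, at 4466 CPM, and lowest in Dp16 library 5, at 642 CPM.

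Translation factors and some other genes with TOP mRNAs, 17 of 17 tested and among them Eef2 and Pabpc1, had medians of -0.04, 0.27, 0.36 and 0.25 in the same 4 comparisons, with 0 called. Nap1l1, a histone chaperone with a TOP mRNA, had an unadjusted p of 0.0097 for Dp16-2xIFNRs against wild-type (log2 fold change 0.46, SE 0.162, adjusted p = 0.430, edgeR). The sum of the list was 19460 CPM in Dp16 library 4 and 6035 CPM in library 5.

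Mitochondrial ribosomal proteins, whose ribosome is separate and whose mRNAs are also short, had 77 of 78 genes tested, with Mrpl53 at 0 in every library. Their medians were -0.11, 0.21, 0.33 and 0.33. In the genotype comparisons 0 were called. Between the sexes 2 of 77 were called, beside 6.56% of all genes, both higher in males: Mrpl4 (log2 difference 0.49, SE 0.103, adjusted p = 0.0045, edgeR) and Mrpl34 (0.82, SE 0.184, adjusted p = 0.0085). Mrpl39 and Mrps6 lie in the duplicated segment, and their log2 fold changes in Dp16 were 0.40 (SE 0.122, adjusted p = 0.518) and 0.62 (SE 0.275, adjusted p = 0.949).

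Ribosome biogenesis genes, 55 of 55 tested, had medians nearer to 0 in the genotype comparisons with Dp16-2xIFNRs: they were -0.06, -0.04, 0.08 and 0.17, and their sum lay between 979 CPM and 1353 CPM in every library. In the genotype comparisons 0 were called. Between the sexes 2 of 55 were called, beside the 6.56% of all genes. These were Bop1 and Pno1, both assembly factors, which were higher in males than in females (log2 differences 0.46, SE 0.109, adjusted p = 0.0115, and 0.61, SE 0.171, adjusted p = 0.0373, edgeR). RNA polymerase I genes, 12 of 15 symbols matched, had medians of 0.07, -0.10, -0.12 and 0.08 with 0 called.

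Regulators of TOP translation and ribosome synthesis, 20 of 20 tested, had medians of 0.02, -0.17, -0.28 and 0.01 with 0 called. Mtor was lower in Dp16-2xIFNRs than in Dp16 by value only, with a log2 fold change of -0.80 (SE 0.294, adjusted p = 0.532, edgeR). Tsc1, which restrains mTOR, had the same size and sign of change, at -0.80 (SE 0.329, adjusted p = 0.532). Genes of 4 kb or longer that are not ribosomal protein genes had a median log2 fold change of -0.32 in this comparison. The part of gene length in the values of these regulators was not tested. Gabpa, an ETS factor whose gene is in the duplicated segment, had a log2 fold change of 0.63 in Dp16 against wild-type (SE 0.225, adjusted p = 0.737).

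Genes of the p53 response to ribosomal protein imbalance, 10 of 10 tested, had medians of 0.09, -0.11, -0.21 and -0.02. Cdkn1a, the cell cycle inhibitor, had the largest value in Dp16 against wild-type, at 2.03 (SE 0.507, adjusted p = 0.279, edgeR), and was not called. In the sex comparison 1 of 10 was called, beside 6.56% of all genes: Sesn2, lower in males (log2 difference -0.79, SE 0.205, adjusted p = 0.0223).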

How the data were processed

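The deposited counts are whole reads per gene made by the authors, and the tools listed in the submitters' processing notes are HISAT2 2.1.0 and HTSeq 0.6.1, with SAMtools 1.5, FastQC 0.11.5 and bcl2fastq, on the build GRCm38. The deposited RPKM values are the same counts divided by the authors by gene length and library total; gene length was recovered from that ratio. The kit was strand-specific, per the labels' protocols; the strand setting of the counting was not stated in the sources at hand. From 38236222 to 59923315 counts per library bear on the precision. Positions came from GENCODE M21.

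A single edgeR 4.0.16 quasi-likelihood fit (R 4.3.3) took the counts of all 18 libraries with genotype and sex as terms, TMM factors and filterByExpr, which left 15208 genes. Calls are at an adjusted p below 0.05 (Benjamini-Hochberg, all tested genes). p-values measure the spread between the libraries of a group, 1 for each numbered sample. On simulated data for Dp16 against wild-type, 5 of 67 genes changed 1.5-fold, 24 of 67 changed 2-fold and 43 of 66 changed 4-fold were called, out of 15208 genes, with 0 false calls. Each gene was drawn independently there, without the movement that the ribosomal protein genes share, so these counts need not hold for them. Medians over the genes have no test.

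The genes and the lists were chosen with earlier results of these data known. Named are the stalk genes, the 3 highest and lowest by RPKM, called genes or the 3 with the smallest p per comparison and direction, paralogs with their partners, and up to 2 genes per list; some of these are not reported here, and 2 are left out of the plots by gene. The lists of Kupffer, endothelial, stellate, cholangiocyte, neutrophil and monocyte markers were also read. Tried instead were library totals or DESeq2 size factors, DESeq2 1.42.0, limma-voom (limma 3.58.1), no filter, a gene length offset, a block, no sex term, the digits of the sample description, and libraries left out. Scaling to the summed counts of the ribosomal protein genes was added after the data were seen, as were counts of genes whose groups do not overlap and a block for the description number.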

Additional observations from a re-analysis of the deposited data

Results flagged for a closer look

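For 11 of the named genes the CPM value of Dp16 library 4 lay far above the other 5 Dp16 libraries, with a gap, as a share of the group's range, above Dixon's 95% critical value for 6 samples. Of 78 groups of libraries examined, 11 were marked, all in Dp16 library 4; chance marks about 1 in 20 groups, and these genes share the library, so the 11 are not separate. The gap was taken on CPM and not on its log, so a high library is marked more readily than a low one. On the log2 scale the median of the tested genes against wild-type was 1.33 in library 4 and -1.22 in library 5. The marks thus do not show that library 4 was farther out than library 5. Of the large subunit, Rpl12 had 948.2 CPM beside at most 313.8 CPM in the other Dp16 libraries, Rpl35a 639.6 CPM beside 224.7 CPM, and Rpl36 711.1 CPM beside 288.8 CPM. Rpl27 had 455.2 CPM beside 192.0 CPM, Rpl22 304.8 CPM beside 136.8 CPM, Rpl39 291.3 CPM beside 118.6 CPM, and Rpl22l1 70.22 CPM beside 27.99 CPM. Of the small subunit, Rps6 had 990.4 CPM beside 424.8 CPM, Rps27 659.6 CPM beside 259.2 CPM, Rps27l 351.7 CPM beside 119.0 CPM, and Rps15a 321.6 CPM beside 138.1 CPM. The same library had the lowest scaling factor (0.803) and the steepest negative slope on gene length (-0.30); their part in these values was not tested.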

How the results depend on the processing

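The count of ribosomal protein genes called was 0 in each of the 4 comparisons under every alternative run, and 0 for the 3 differences between the sexes. In the 4 comparisons the medians moved by at most 0.40. The largest moves were about as large as the medians or larger. They were 0.39 for Dp16 against wild-type (median -0.07), 0.34 for Dp16-2xIFNRs against wild-type (0.34), 0.40 against Dp16 (0.40) and 0.34 between the sexes (0.33). The pooled SD within groups of a library's own median was 0.62, which is a spread of single libraries and not the error of a difference between groups. The difference between the sexes in Dp16 against wild-type moved further, from 1.31 to 0.32, without Dp16 libraries 4 and 5. With the replicate block they were -0.17, 0.37, 0.54 and 0.64 (Dp16 and Dp16-2xIFNRs against wild-type, Dp16-2xIFNRs against Dp16, male against female), with 40 of 79 at an unadjusted p under 0.05 between the sexes (26.3% of all genes) and 1, in Rps27l, without it. Among 18 correlations between libraries with the same sample number, from -0.25 to 0.36, 6 were over 0.1. Libraries with different numbers were not set beside them, so these values cannot decide whether the numbers pair mice. The description number shared by 11 libraries, as a block over these alone, was added after the data were seen; of its 7 correlations, from -0.06 to 0.32, 2 were over 0.1. It gave medians of -0.32, 0.29 and 0.60 for the genotype comparisons, with 2, 4 and 77 of 79 at an unadjusted p under 0.05, beside 5.23%, 10.9% and 18.3% of all genes, and 0 called; it holds neither Dp16 library 4 nor 5. With 1 library left out the medians ran from -0.46 to 0.12, 0.22 to 0.54, 0.23 to 0.80 and 0.09 to 0.46. Without a sex term the median for Dp16 against wild-type was 0.01; the cause was not tested. Scaled to the summed counts of the ribosomal protein genes, which removes their common movement by construction, the medians were 0.00, 0.00, 0.01 and -0.01, and the medians of all genes 0.23, -0.53, -0.76 and -0.29. As a share of summed RPKM, the mean of the 80 genes was 4.25% for wild-type, 4.19% for Dp16 and 5.09% for Dp16-2xIFNRs, above their share of counts because RPKM divides by length. Named genes changed sign in 102 of 660 values for Dp16 against wild-type, and in 18 of 660, 12 of 660 and 28 of 616 in the other comparisons. Over all genes, edgeR called 6, 15, 0 and 998 and DESeq2 72, 127, 7 and 1535. For Dp16 against wild-type, simulated 1.5-fold changes were seldom called (5 of 67); the other comparisons were not simulated.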

Other observations

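Markers of 5 other cell classes of the liver were read in the same way, with no marker at 0 in all libraries. Kupffer cell markers (6 of 6) summed to 194 to 444 CPM in wild-type, 190.0 to 280 CPM in Dp16 and 184 to 255 CPM in Dp16-2xIFNRs. Endothelial markers (6 of 6) summed to 118 to 194 CPM, 146 to 249 CPM and 143 to 194 CPM in the same order. Cholangiocyte markers (5 of 5) summed to 39.7 to 102 CPM, 33.9 to 79.1 CPM and 31.9 to 54.3 CPM. Stellate cell markers (7 of 7) had 131 to 215 CPM, 178 to 272 CPM and 173 to 247 CPM. Neutrophil and monocyte markers (6 of 6) had 3.32 to 9.76 CPM, 8.36 to 19.6 CPM and 8.68 to 20.7 CPM. Against wild-type, their median log2 fold changes in Dp16 and in Dp16-2xIFNRs were -0.12 and -0.17 (Kupffer), 0.16 and -0.22 (endothelial), -0.18 and -0.16 (cholangiocyte), 0.30 and 0.16 (stellate) and 0.50 and 0.72 (neutrophil and monocyte). In the genotype comparisons over all 18 libraries no gene of these 5 lists was called. Without Dp16 library 4, 1 of the 6 neutrophil and monocyte markers was called higher in Dp16-2xIFNRs than in wild-type, beside 48 of 15467 genes called.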
